A study of Homo sapiens with 33 samples.

Results

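EGR1, EGR2, EGR3, EGR4, IER2, IER3, IER5 and SRF are 8 immediate early genes, or partners of such genes, outside the AP-1 family. They were followed on Affymetrix HG-U133A arrays in anaplastic large cell lymphoma (ALCL) cells in which the kinase ALK was silenced or inhibited. Members were chosen by gene symbol: every probe set that the platform annotation gives to one of these symbols alone was used. This found 7 of the 8 genes, with 10 probe sets, among 11963 named genes with 19065 probe sets. EGR2 was not analysed here, since no probe set of the annotation used was paired with EGR2 alone.

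Immediate early genes are transcribed within minutes of a growth signal, without new protein synthesis. In many cells the route runs from a receptor kinase through RAS, RAF, MEK and ERK to ETS-family ternary complex factors such as ELK1, which act together with serum response factor (SRF) on CArG boxes in promoters. EGR1 to EGR4 encode zinc-finger transcription factors that bind GC-rich sites, and IER2, IER3 and IER5 encode small proteins named for their immediate early response. NPM1-ALK, the fusion kinase of ALK-positive ALCL, feeds the same ERK pathway.

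The cells were TS, a subclone of the Sup-M2 line, and Su-DHL1, both human ALCL lines. In the hairpin experiment they carried lentiviral tTR-KRAB and a hairpin RNA switched on by doxycycline (1 microg/ml), and were sorted for DsRed and for GFP that appeared only with the inducer. Hairpin A5 targets ALK and A5M is its mutated form. There were 7 groups. A5 was studied in TS at 84 h and at 72 h and in Su-DHL1 at 72 h, in each case induced (with doxycycline) or uninduced (without it). A5M was studied in TS at 84 h, induced. A5M cells were transduced separately and have no uninduced group here. In the 6 h experiment TS cells received 300 nM of the compound A1, A2 or A3, and the group U received none. The design text calls A1 a mock compound and U a control with diluent, while the sample labels call A1 an ALK inhibitor and U untreated. A1 is used here as the control of A2 and A3. Each of the 11 groups had 3 arrays. The labels do not say whether these were separate cultures, and p-values then reflect only the spread among arrays, which may be technical.

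The values are MAS5 signals, a linear intensity per probe set scaled to one target on every array. Trimmed means lay between 200.06 and 200.08 and array medians between 54.8 and 69.5. Replicate arrays correlated at 0.969 to 0.985. ALK itself fell in all 3 hairpin settings, with an average log2 fold change of -2.54 (SE 0.06, adjusted p = 9.61e-20 by limma). Of 14 markers of ALCL and T cells, 11 reached the 40th percentile on nearly all arrays, against 0 of 4 B cell, 0 of 3 myeloid and 1 of 5 epithelial and stromal markers on the array, the 1 being COL1A1. The 3'/5' signal ratio of the ACTB controls, a measure of RNA integrity, differed between groups. Its mean was 1.27 with and 1.54 without doxycycline in TS at 84 h, 1.32 and 1.59 in TS at 72 h, 1.36 and 1.39 in Su-DHL1, and 1.52 with A5M. At 6 h it was 1.18 in U, 1.33 in A1, 1.05 in A2 and 1.06 in A3. In bulk RNA, fewer cells expressing a gene and less RNA per cell cannot be told apart.

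CArG boxes, on which SRF is known to act, were looked for in the 250 bases before the start of transcription. The RefSeq table used (GRCh38.p14) held 6 of the 8 members; IER3 and EGR3 were not matched. The sequences of EGR1, SRF, IER2 and IER5 are shown because these members changed with the inhibitors below. CArG boxes are in capitals.
EGR1, chr5:138465229-138465478 (+ strand): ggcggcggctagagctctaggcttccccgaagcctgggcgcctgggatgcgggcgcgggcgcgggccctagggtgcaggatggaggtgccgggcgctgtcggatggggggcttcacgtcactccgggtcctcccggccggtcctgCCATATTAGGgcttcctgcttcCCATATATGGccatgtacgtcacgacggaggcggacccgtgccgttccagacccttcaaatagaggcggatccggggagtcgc
SRF, chr6:43171019-43171268 (+ strand): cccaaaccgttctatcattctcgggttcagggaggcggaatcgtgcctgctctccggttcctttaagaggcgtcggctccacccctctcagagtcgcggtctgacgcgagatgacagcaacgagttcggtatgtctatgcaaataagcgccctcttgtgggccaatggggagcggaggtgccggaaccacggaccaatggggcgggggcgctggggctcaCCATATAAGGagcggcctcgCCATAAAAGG
IER2, chr19:13150161-13150410 (+ strand): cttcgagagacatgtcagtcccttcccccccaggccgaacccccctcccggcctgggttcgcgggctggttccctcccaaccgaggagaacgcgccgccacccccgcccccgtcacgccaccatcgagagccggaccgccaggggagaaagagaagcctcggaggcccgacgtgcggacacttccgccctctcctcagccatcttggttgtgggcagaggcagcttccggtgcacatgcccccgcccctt
IER5, chr1:181088450-181088699 (+ strand): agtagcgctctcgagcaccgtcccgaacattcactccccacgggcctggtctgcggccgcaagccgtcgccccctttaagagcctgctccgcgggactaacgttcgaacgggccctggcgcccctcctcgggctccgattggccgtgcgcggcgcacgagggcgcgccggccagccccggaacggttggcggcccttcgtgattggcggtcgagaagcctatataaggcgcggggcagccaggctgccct

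EGR1 had 2 CArG boxes, CCATATTAGG from 105 to 96 and CCATATATGG from 83 to 74 bases before its start. SRF had 2 as well, CCATATAAGG from 30 to 21 and CCATAAAAGG from 10 to 1 bases before the first of its 2 starts in the table. The windows of IER2, IER5, EGR4 and the second SRF start held none. A form of the box with 1 mismatch was found at 2 places each in IER5 and EGR4 and at 1 place in an EGR2 window. It was found in 15.9% of all promoters. Of the 3 EGR2 starts, 1 had a single box. A CArG box on either strand was found in 407 of all 35116 promoters of that length, or 1.16%. The EGR site GCGNGGGCG, searched on both strands, was found once in EGR1 and once in the first SRF window, and in 8.42% of all promoters. The ETS core GGAA, which marks ELK and other ETS factors, was found in all of these windows, as it was in 92.7% of all promoters. No window of these genes held the CRE TGACGTCA (1.65% of all promoters). A match is a description of letters and not a measured binding site.

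The plot of signals by array shows where each member stood. IER2 was the brightest, between 457 and 4513, and its median percentile on the arrays was 98.0. IER5 lay between 692 and 1444, IER3 between 90.9 and 791, EGR1 (probe set 201694_s_at) between 23.7 and 467, and SRF (202401_s_at) between 138 and 282. EGR4 (207767_s_at) lay between 36.0 and 124. EGR3 (206115_at) lay between 15.5 and 46.7, reached the 40th percentile on 2 arrays and was not tested. Signals of different probe sets are not on one scale of abundance, so these are ranges and no order of genes. Thus 6 of the 8 members were tested.

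**Figure D1:**
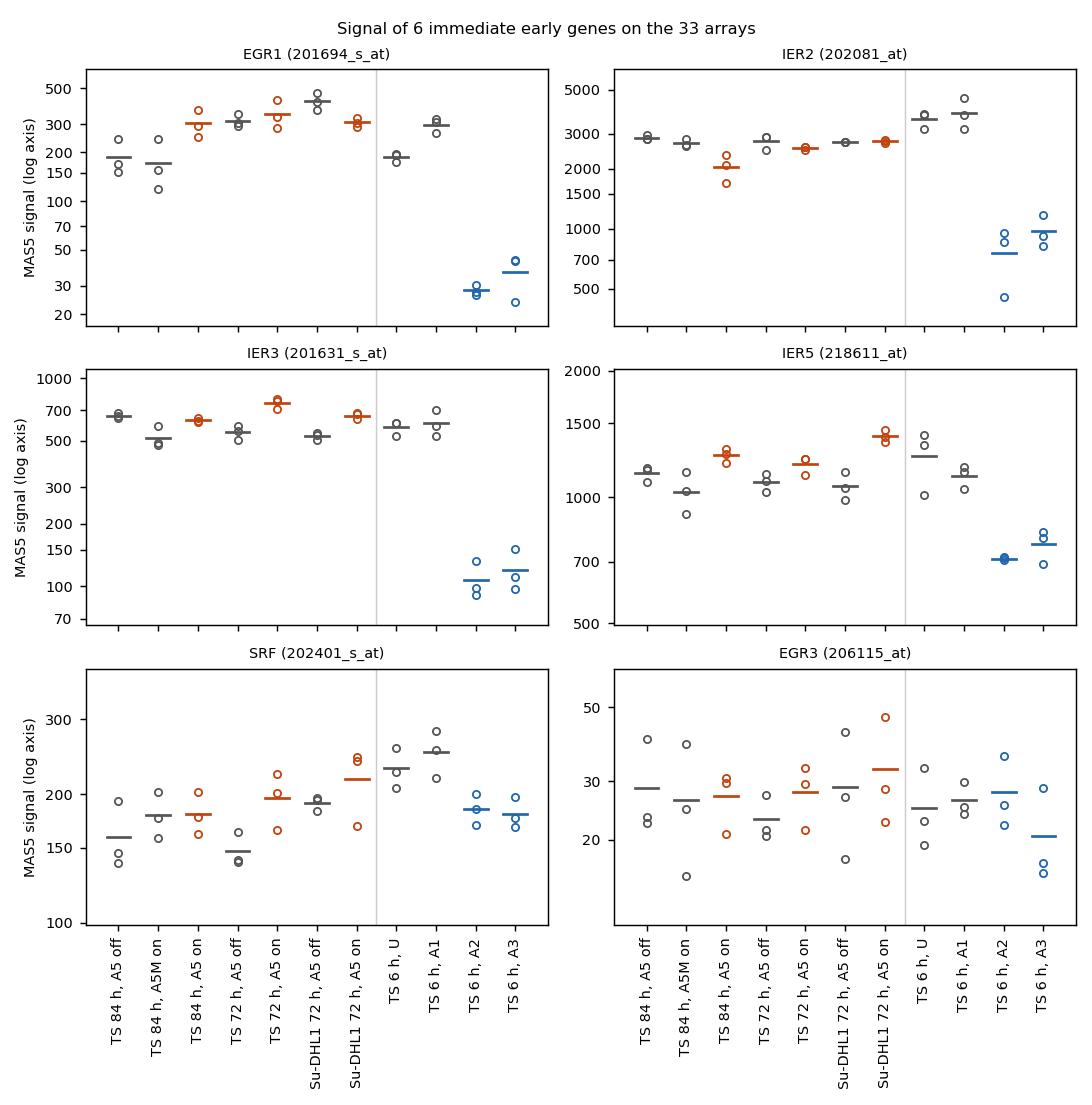
MAS5 signal (log axis) of EGR1, IER2, IER3, IER5, SRF and EGR3 on each of the 33 arrays, by group; circles are arrays, lines are group means, orange marks induced A5 and blue marks A2 and A3, and a grey line parts the hairpin from the 6 h experiment. EGR1, IER2, IER3 and IER5 sit lowest in A2 and A3, and EGR3 stays between 15.5 and 46.7 in all groups.

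The inhibitors lowered 5 of the 6 tested members against A1 within 6 h, and EGR1, IER3 and IER2 by several fold. Among all genes tested, 16.3% were called lower and 22% higher (A2 and A3 averaged; limma, adjusted p under 0.05). The median log2 fold change was -1.38 over the 6 members and 0.03 over all genes. Calls were the same with each inhibitor alone: 5 fell with A2 (14.3% of all genes lower, 19.1% higher) and 5 with A3 (14.2% lower, 18.5% higher).

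EGR1, the zinc-finger factor most used as a readout of ERK signalling, changed most. Its signals were 307, 322 and 264 in A1, 174, 196 and 194 in U, 27.5, 26.4 and 30.3 in A2, and 42.7, 43.5 and 23.7 in A3. Every A2 and A3 array lay below every A1 and U array. A2 left 9.44% and A3 12.3% of the A1 mean. The log2 fold change of log2(signal + 11), a scale that understates changes of dim probe sets, was -2.98 (SE 0.18, adjusted p = 1.88e-09 by limma) for A2 and -2.72 (SE 0.18, adjusted p = 5.42e-09) for A3. In A2 the signals lay near the 34.4th percentile of the arrays, so the size of the fall is limited by how dim the probe set became. The other EGR1 probe set (201693_s_at) fell less, by 1.09 (SE 0.21) with A2 and by 0.93 (SE 0.21) with A3, both called. By 201694_s_at EGR1 had a higher signal in A1 than in U on all arrays, with a log2 difference of 0.63 (95% interval 0.25 to 1.01), but the adjusted p was 0.258 by limma. By 201693_s_at EGR1 overlapped between A1 and U, at 0.19 (adjusted p = 0.871). Against U the values of EGR1 by 201694_s_at were -2.35 with A2 and -2.09 with A3.

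IER3, an early response gene known for its part in apoptosis and ERK signalling, fell next. Its signals were 587, 530 and 705 in A1, 133, 98.0 and 90.9 in A2, and 151, 96.6 and 111 in A3, and U had 525, 606 and 608. The groups did not overlap, and A2 left 17.7% and A3 19.7% of the A1 mean. The log2 fold changes were -2.39 (SE 0.17, adjusted p = 1.03e-08 by limma) and -2.26 (SE 0.17, adjusted p = 2.2e-08).

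IER2, which encodes a nuclear protein with a role in transcription, was high in A1 at 3174, 4513 and 3723. It stood at 951, 457 and 861 in A2 and at 925, 816 and 1174 in A3, against 3783, 3743 and 3154 in U. The lowest A2 array was replicate 2, and no A2 or A3 array reached the lowest control. The log2 fold changes were -2.37 (SE 0.21, adjusted p = 2.26e-07 by limma) with A2 and -1.96 (SE 0.21, adjusted p = 2.19e-06) with A3.

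IER5, a partner of the phosphatase PP2A and of heat shock factor HSF1, fell by less. Its signals were 1147, 1044 and 1177 in A1, 716, 717 and 706 in A2, and 824, 692 and 797 in A3. U arrays had 1406, 1332 and 1013. A2 left 63.5% and A3 68.7% of the A1 mean, without overlap. The averaged log2 fold change was -0.59 (SE 0.11, adjusted p = 0.000289 by limma).

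SRF, the factor that binds CArG boxes, had signals of 254, 282 and 218 in A1, 169, 185 and 201 in A2, and 176, 197 and 168 in A3, with 226, 207 and 257 in U. A2 left 73.6% and A3 71.7% of the A1 mean. The averaged log2 fold change was -0.43 (SE 0.12, adjusted p = 0.00623 by limma). Against U the values of SRF were -0.30 (adjusted p = 0.096) and -0.33 (adjusted p = 0.0645), which did not pass. The other SRF probe set (202400_s_at) had -0.71 (SE 0.21, adjusted p = 0.0113) for the average.

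So 4 of 6 members passed against U with A2 (15.4% of all genes lower, 19.8% higher) and 4 of 6 with A3 (14.9% lower, 18.8% higher). The ACTB ratio was lower in A2 and A3 than in A1. With that ratio as a covariate 3 of the 5 calls against A1 held (EGR1, IER2 and IER3), while IER5 had -0.45 (adjusted p = 0.0882) and SRF -0.53 (adjusted p = 0.0654). The part of the ratio in the IER5 and SRF differences was not tested beyond this. How many of all genes kept a call with this covariate at 6 h is not given here. The 2 lost calls can thus not be read as particular to these members. In the hairpin average the covariate lowered the calls over all genes from 4622 to 2441. Leaving out any 1 array of A1, A2 or A3 kept the count for the average at 5, and the count with each inhibitor alone at 4 to 5. SRF was the member lost. With A2 its call was lost without A1 replicate 1 (-0.41, adjusted p = 0.0582) or 2 (-0.33, adjusted p = 0.0884), without A2 replicate 1 (-0.36, adjusted p = 0.0896) or 2 (-0.42, adjusted p = 0.055), and by 202400_s_at (-0.45, adjusted p = 0.173). With A3 the SRF call was lost without A1 replicate 2 (-0.37, adjusted p = 0.0601) or A3 replicate 3 (-0.41, adjusted p = 0.0567). The falls of EGR1, IER2 and IER3 stayed called under every alternative run.

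A2 and A3 are distinguished in these data by code name only, and were given at the same dose and time. None of the 6 members differed between them by limma, and 0.0582% of all genes were called higher and 0.0932% lower with A3. The difference of A3 from A2 was 0.41 (95% interval -0.04 to 0.86) for IER2, 0.26 (-0.12 to 0.63) for EGR1, 0.14 (-0.21 to 0.49) for IER3, 0.11 (-0.15 to 0.37) for IER5, -0.04 (-0.32 to 0.25) for SRF and -0.27 (-0.75 to 0.20) for EGR4. The intervals leave room for a difference, for IER2 of up to 0.86, and do not show that the compounds act alike. No member was called for A1 against U either, among 0.0233% of all genes called higher and 0.0116% lower. At an unadjusted threshold of 0.05, limma had 1 member (EGR1) between A1 and U, and 0 between A3 and A2. The share of all genes at an unadjusted 0.05 is not given, here or below. Counts at that threshold thus have no background beside them, and the percentages of all genes are at an adjusted p under 0.05.

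**Figure D2:**
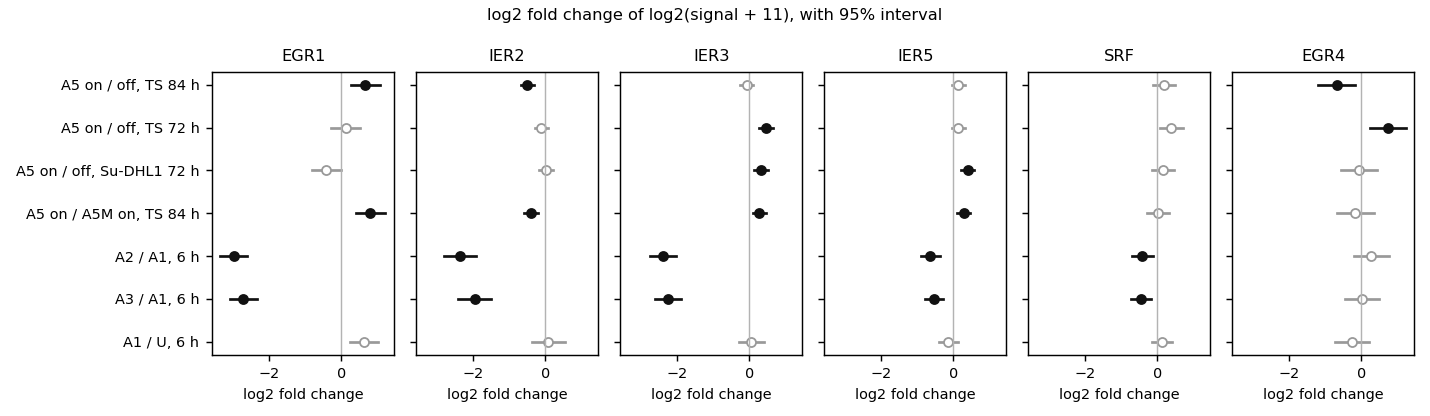
log2 fold change of log2(signal + 11) with its 95% interval for the 6 tested members (columns) in 7 comparisons (rows); filled black points were called by limma at an adjusted p under 0.05, open grey points were not. EGR1, IER2 and IER3 reach -1.96 to -2.98 with A2 and A3, while every hairpin comparison lies between -0.69 and 0.81.

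After 72 to 84 h of ALK hairpin the members moved little and not in one direction. On average over the 3 settings, 3 of 6 were called higher (29.1% of all genes) and 1 lower (21.7% of all genes), so a call in either direction was common among all genes. The higher ones were SRF at 0.24 (SE 0.09, adjusted p = 0.0238 by limma), IER3 at 0.24 (SE 0.05, adjusted p = 0.000394) and IER5 at 0.22 (SE 0.05, adjusted p = 0.00052). IER2 fell by 0.20 (SE 0.05, adjusted p = 0.0025). EGR1 was at 0.12 (adjusted p = 0.392; 0.24 and 0.0413 by its other probe set) and EGR4 at -0.01 (adjusted p = 0.972). With the ACTB ratio as covariate 0 of the 6 passed, with values of 0.36 for SRF, 0.24 for IER3, 0.20 for IER5 and -0.17 for IER2 and adjusted p between 0.0913 and 0.254, and with arrays scaled to a common median only IER2 did. Of all 9097 genes, 2441 were called with that covariate and 4462 with median scaling, against 4622 in the main fit. Median scaling moved the median of all genes from 0.07 to -0.06. SRF lost its call when any of 5 arrays was left out (84 h induced replicate 1, 84 h uninduced replicate 3, 72 h induced replicate 1, Su-DHL1 induced replicates 1 and 2), with values of 0.21 to 0.22 and adjusted p of 0.0528 to 0.0588, and its other probe set had -0.05.

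In TS cells at 84 h EGR1 was called higher and IER2 and EGR4 lower, 1 of 6 against 21.8% of all genes higher and 2 of 6 against 18.8% lower. EGR1 had 369, 291 and 248 with and 151, 170 and 241 without doxycycline, so the lowest induced array was just above the highest uninduced one. The log2 fold change of EGR1 was 0.67 (SE 0.20, adjusted p = 0.00804 by limma), and the other probe set of EGR1 gave 0.58 (adjusted p = 0.00629). Without induced replicate 1 it was 0.52 (adjusted p = 0.0599), without uninduced replicate 1 it was 0.54 (adjusted p = 0.055), and with the ACTB ratio 0.72 (adjusted p = 0.158).

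IER2 had 2090, 2351 and 1702 with and 2825, 2954 and 2840 without doxycycline at 84 h, with no overlap. This is a log2 fold change of -0.50 (SE 0.09, adjusted p = 8.19e-05 by limma), called in each alternative run. The mutated hairpin with doxycycline left IER2 at 2616, 2632 and 2810, and A5 lay below it by 0.40 (SE 0.09, adjusted p = 0.000753). EGR4 fell by 0.69 (SE 0.24, adjusted p = 0.0257) by its main probe set, which was lost without induced replicate 1 (-0.65, adjusted p = 0.0718), induced replicate 3 (-0.60, adjusted p = 0.0979) or uninduced replicate 3 (-0.57, adjusted p = 0.108).

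Against A5M, which shares doxycycline with the induced A5 group, 3 of 6 members were called higher (23.3% of all genes) and 1 lower (20% of all genes). EGR1 was higher by 0.81 (SE 0.20, adjusted p = 0.00156 by limma), with 242, 157 and 119 in A5M. IER5 was higher by 0.29 (SE 0.09, adjusted p = 0.0082) and IER3 by 0.27 (SE 0.09, adjusted p = 0.0138). The IER3 call was lost without A5M replicate 1 (0.22, adjusted p = 0.0759) or replicate 2 (0.24, adjusted p = 0.0621), and the IER5 call without A5M replicate 3 (0.21, adjusted p = 0.0601). With the ACTB ratio as covariate 1 of 6 was called, EGR4 (-1.01, adjusted p = 0.0332), and EGR1 had 0.86 (adjusted p = 0.0611). Of all 9097 genes, 2400 were called against A5M with that covariate and 3942 in the main fit. This comparison and the one with the uninduced cells share the induced arrays.

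A5M with doxycycline against uninduced A5 gives the background of inducer and transduction, with 3.24% of all genes higher and 3.76% lower. IER3 was the 1 member of 6 called, lower by -0.35 (SE 0.09, adjusted p = 0.0165 by limma). Its signals were 477, 490 and 589 with A5M and 644, 656 and 683 in uninduced A5 cells, without overlap. The IER3 difference between A5 and A5M is thus set beside a difference between A5M and uninduced A5 cells, and against the latter induced A5 had -0.07 (adjusted p = 0.556). The IER3 call was lost without A5M replicate 1 (-0.29, adjusted p = 0.0766), A5M replicate 2 (-0.31, adjusted p = 0.0732) or uninduced replicate 3 (-0.33, adjusted p = 0.0525). Without A5M replicate 3, IER3 and EGR4 were both called.

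In TS cells at 72 h 2 of 6 members were called higher (19% of all genes) and 0 lower (15.2% of all genes; 0 also at an unadjusted p under 0.05 by limma). IER3 had 791, 711 and 780 with and 558, 505 and 587 without doxycycline, a log2 fold change of 0.46 (SE 0.09, adjusted p = 0.000216 by limma) with no overlap. EGR4 had 87.5, 83.0 and 110 with and 58.1, 63.8 and 36.0 without, a log2 fold change of 0.73 (SE 0.24, adjusted p = 0.0216). The EGR4 call was lost without induced replicate 3 (0.62, adjusted p = 0.0943) or uninduced replicate 3 (0.53, adjusted p = 0.136), and with the ACTB ratio as covariate the value was -0.15. SRF was higher on every induced array, at 223, 165 and 201 against 140, 139 and 163, and its 0.38 just missed the threshold (SE 0.15, adjusted p = 0.0537). The SRF difference was called without induced replicate 2 (0.50, adjusted p = 0.0264) or uninduced replicate 3 (0.45, adjusted p = 0.0468). By its other probe set, 202400_s_at, SRF overlapped between the groups and had -0.19 (adjusted p = 0.345).

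In Su-DHL1 cells at 72 h 2 of 6 were called higher (13.9% of all genes) and 0 lower (10.7% of all genes; 1 at an unadjusted p under 0.05, EGR1). IER5 had 1350, 1391 and 1444 with and 986, 1146 and 1050 without doxycycline, a log2 fold change of 0.39 (SE 0.09, adjusted p = 0.00144 by limma). IER3 had 669, 681 and 634 with and 532, 506 and 543 without, a log2 fold change of 0.32 (SE 0.09, adjusted p = 0.00883). Neither gene overlapped between the groups, though both calls were lost with median scaling (0.22 and 0.15). EGR1 lay lower on every induced array, at 305, 288 and 329 against 369, 467 and 409, with -0.42 (SE 0.20, adjusted p = 0.135). EGR1 was called lower with median scaling (-0.59, adjusted p = 0.0245 by limma) and in a fit of only the groups compared (-0.42, adjusted p = 0.0153), and its other probe set overlapped at -0.17 (adjusted p = 0.525). Without the hairpin, 0 of the 6 members were called different between Su-DHL1 and TS cells at 72 h. Of all genes 10.8% were called higher and 10.4% lower in Su-DHL1. By their main probe sets EGR1 (0.39, adjusted p = 0.179 by limma) and SRF were nonetheless higher in Su-DHL1 without overlap. SRF was so by 202400_s_at as well, at 107.5, 110 and 112.4 against 76.6, 68.7 and 74.2, while EGR1 overlapped by 201693_s_at. At an unadjusted threshold of 0.05, 1 of the 6 passed by limma (SRF, 0.35, adjusted p = 0.105), and line and array handling cannot be told apart in this comparison.

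No main probe set had a response that was called different between the lines at 72 h (1.68% of all genes higher and 1.21% lower in Su-DHL1). IER5 and EGR4 passed an unadjusted threshold of 0.05, with 0.25 (adjusted p = 0.361 by limma) and -0.80 (adjusted p = 0.285). Between the times in TS, 0 of 6 responses were higher at 84 h even at an unadjusted 0.05. At an adjusted p under 0.05, 0 of 6 were called higher (0.297% of all genes) and 2 of 6 lower at 84 h (0.978% of all genes). These were IER3, which had 0.46 at 72 h and -0.07 at 84 h (difference -0.53, SE 0.12, adjusted p = 0.0298 by limma), and EGR4, with 0.73 and -0.69 (difference -1.43, SE 0.34, adjusted p = 0.037). The IER3 call was lost when 8 of the 12 arrays were left out in turn and the EGR4 call for 9 of the 12, with adjusted p of up to 0.113 and 0.121. The count then ranged from 0 to 2.

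EGR4, an EGR factor best known from the nervous system and germ cells, was read by a pair of probe sets that went different ways, shown in the plot of the second probe sets. The main one, 207767_s_at, had 63.7, 62.7 and 80.6 in A1, 56.3, 97.3 and 112 in A2, and 78.4, 65.4 and 63.7 in A3, and its log2 fold change for the averaged inhibitors was 0.14 (SE 0.20, adjusted p = 0.621 by limma). The dimmer one, 207768_at, had 69.6, 76.4 and 63.8 in A1, 60.9, 66.2 and 52.1 in U, 5.80, 16.2 and 5.60 in A2, and 7.10, 18.1 and 13.7 in A3. By this probe set A2 and A3 lay below every control array, with 13.2% and 18.5% of the A1 mean.

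The probe set 207768_at reached the 40th percentile on 9 of 33 arrays: it entered the tests only through U and A1 at 6 h and through uninduced Su-DHL1 cells in the hairpin experiment. A difference from those groups is thus built into its selection. Uninduced Su-DHL1 cells had 72.9, 94.9 and 56.2 and induced ones 31.2, 22.0 and 23.8. In TS cells the direction of EGR4 by 207768_at was the opposite. There it had 26.0, 19.9 and 31.6 with and 10.4, 3.70 and 19.8 without doxycycline at 84 h, and 26.0, 20.9 and 24.3 with and 12.3, 11.4 and 6.90 without at 72 h, all below the 40th percentile. The fit over probe sets gave -1.91 (SE 0.24) for the averaged inhibitors, -1.21 (SE 0.30) for Su-DHL1 and 0.78 (SE 0.30) and 0.72 (SE 0.30) for TS at 84 h and 72 h.

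**Figure D3:**
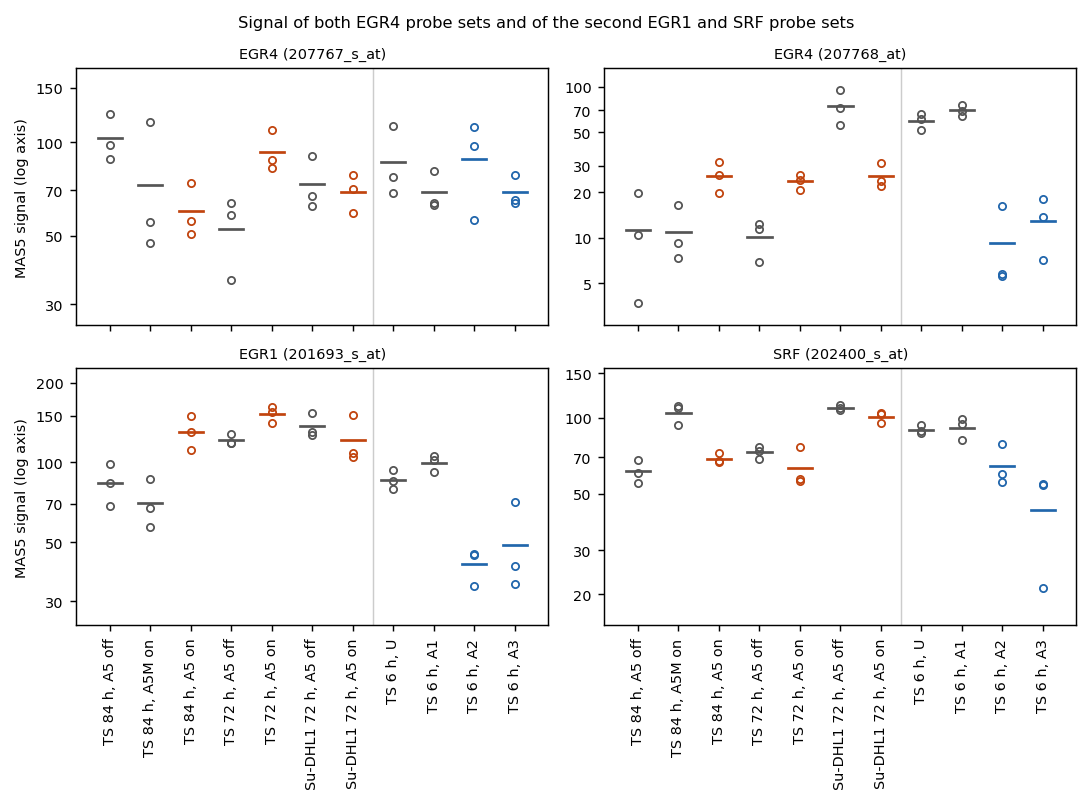
MAS5 signal (log axis) of both EGR4 probe sets and of the second EGR1 and SRF probe sets on each array, with groups, colours and lines as in the plot of signals by array. EGR4 by 207768_at is high in uninduced Su-DHL1, U and A1 and falls to between 5.60 and 18.1 in A2 and A3, whereas 207767_s_at stays between 56.3 and 113 at 6 h.

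SRF too differed between its probe sets outside the 6 h experiment. By 202400_s_at A5M cells had 93.4, 110 and 112, against 67.2, 72.6 and 67.4 in induced and 60.8, 68.3 and 55.2 in uninduced A5 cells at 84 h. Induced A5 then lay below A5M by 0.53 (SE 0.14, adjusted p = 0.00359 by limma), whereas 202401_s_at gave 0.01. Both lay lower with the averaged inhibitors.

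The inhibitor response and the hairpin response of TS cells were set against each other in a fit of all 33 arrays, a comparison added after the data were seen. It takes the averaged inhibitor response less the averaged hairpin response of TS at 72 h and 84 h. All of EGR1, IER2, IER3, IER5 and SRF were called lower, 5 of 6 against 16.2% of all genes (15.4% higher). The differences were -3.24 (SE 0.22, adjusted p = 6.2e-14 by limma) for EGR1, -2.52 (SE 0.14) for IER3, -1.86 (SE 0.18) for IER2, -0.73 (SE 0.11) for IER5 and -0.72 (SE 0.16, adjusted p = 0.00069) for SRF. EGR4 had 0.12 (adjusted p = 0.789) by its main probe set. Agent, duration and handling differ together between the experiments and cannot be told apart.

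The ERK feedback genes, a list of genes that ERK induces and of which some in turn dampen it, were described in the same comparisons. This list and those below were chosen with earlier results of these data known. Their counts are descriptions and no test against all genes. With the inhibitors 8 of the 9 tested fell (16.3% of all genes) and 0 rose, also at an unadjusted 0.05 (median log2 fold change -1.83, all genes 0.03). With the hairpin 7 of 10 rose (29.1% of all genes) and 0 fell (21.7% of all genes) on average (median 0.65, all genes 0.07). ETV4, though not called, was lower at an unadjusted 0.05 (-0.26, adjusted p = 0.0558 by limma). The inhibitor response was called lower than the TS hairpin response for 9 of 10 (16.2% of all genes). By setting, 7 of 10 rose and 1 fell in TS at 84 h (21.8% and 18.8% of all genes, median 1.00). In TS at 72 h 7 rose and 0 fell (19% and 15.2% of all genes, median 1.00). In Su-DHL1 5 rose and 1 fell (13.9% and 10.7% of all genes, median 0.32). At 72 h the hairpin response of 4 of the 10 was called lower in Su-DHL1 than in TS (1.21% of all genes). DUSP6, an ERK phosphatase, had -4.32 (SE 0.23) with the inhibitors, and its hairpin direction differed between the lines. In TS it rose by 1.14 (SE 0.15) at 84 h and by 1.19 (SE 0.15) at 72 h, and in Su-DHL1 it had -0.35 (SE 0.15, adjusted p = 0.0898 by limma). ETV1, an ETS factor, had -2.69 with the inhibitors and 1.62 with the hairpin on average, and PHLDA1 -2.49 and 2.83. SPRY4, an inhibitor of RAS signalling, had -1.78 and 1.34. These averages were called by limma, and the 3 genes ETV1, PHLDA1 and SPRY4 were called higher in each of the 3 hairpin settings.

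The other immediate early genes did not move as one. Of 19 tested with the inhibitors 4 rose and 7 fell (median -0.13; 22% and 16.3% of all genes), and of 21 tested with the hairpin 4 rose and 7 fell (median -0.06; 29.1% and 21.7% of all genes). MYC fell by 6.68 (SE 0.20, adjusted p = 2.01e-13 by limma) with the inhibitors and by 1.53 (SE 0.05) with the hairpin. SGK1, a kinase gene, had -1.72 and -3.55, and RHOB, a small GTPase, 1.87 and 2.12. MYC, SGK1 and RHOB thus had one direction in both experiments.

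**Figure D4:**
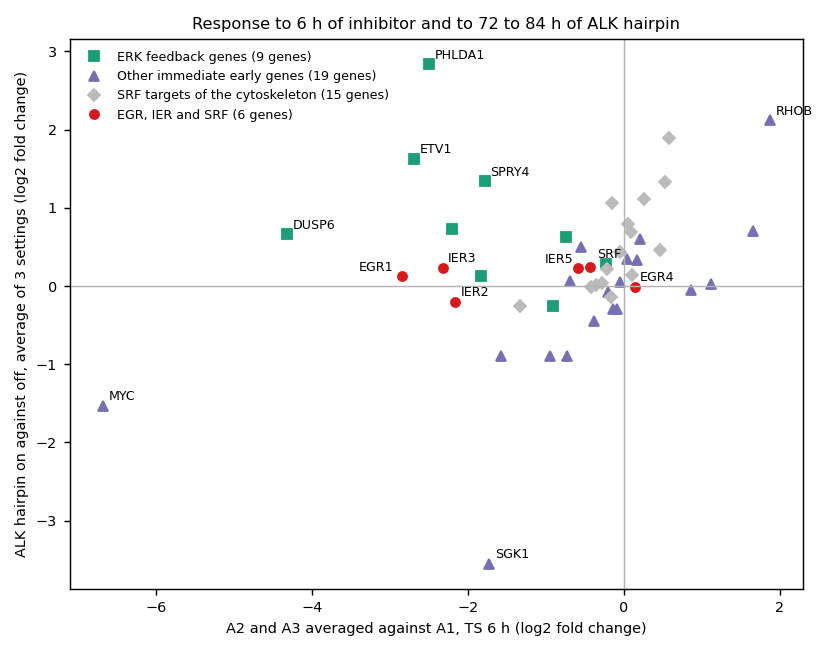
log2 fold change with the averaged inhibitors at 6 h (x axis) against that with the ALK hairpin averaged over 3 settings (y axis), 1 point per gene tested in both, for the members (red) and 3 gene lists. DUSP6, ETV1, PHLDA1 and SPRY4 lie at upper left, MYC and SGK1 at lower left and RHOB at upper right, and EGR1, IER2 and IER3 lie left of -2 and within 0.25 of zero on the y axis.

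Of the ERK pathway kinases, adaptors and SRF cofactors, 9 of 17 rose and 4 fell with the inhibitors (22% and 16.3% of all genes), and 7 of 16 rose and 3 fell with the hairpin (29.1% and 21.7% of all genes). ELK3, a ternary complex factor, fell by 2.03 (SE 0.13, adjusted p = 3.66e-09 by limma) with the inhibitors, and ELK4, its relative, by 0.82 (SE 0.31, adjusted p = 0.0435). With the hairpin the group means of ELK3 went the other way. On the log2 scale of the fits they were 8.77 with and 8.21 without doxycycline in TS at 84 h. They were 8.79 and 8.12 in TS at 72 h, and 8.93 and 8.37 in Su-DHL1. A test of ELK3 with the hairpin is not given here. MAPK3, which encodes ERK1, rose by 1.04 with the inhibitors and by 0.79 with the hairpin. RPS6KA1, a kinase activated by ERK, rose by 0.87 with the hairpin, and MAP2K1, which encodes MEK1, fell by 0.66.

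Of the EGR corepressors and reported EGR targets, 4 of 15 were called higher and 4 lower with the inhibitors (22% and 16.3% of all genes), and 5 of 16 higher and 4 lower with the hairpin (29.1% and 21.7% of all genes). These counts lie near the background of all genes. ID3, an inhibitor of helix-loop-helix factors, rose by 2.29 (SE 0.18, adjusted p = 2.1e-08 by limma) with the inhibitors. ICAM1, an adhesion molecule, fell by 1.84 and PDGFA, a growth factor, by 1.76. With the hairpin F3, the tissue factor gene, fell by 1.21, CBLB, a ubiquitin ligase, rose by 0.81 and IL2RB, an interleukin receptor chain, by 0.66. NAB2, a corepressor of EGR1 that EGR1 is known to induce, was named after its values were seen: it rose by 1.16 (SE 0.13, adjusted p = 2.7e-06) with the inhibitors and by 0.29 (SE 0.09, adjusted p = 0.0103) with the hairpin.

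Of the SRF targets of the cytoskeleton, 8 of 15 were called higher and 1 lower with the hairpin (29.1% and 21.7% of all genes; median 0.43, all genes 0.07), and 1 of 15 higher and 2 lower with the inhibitors (22% and 16.3% of all genes; median -0.05). MYH9, a nonmuscle myosin, rose by 1.90 with the hairpin and by 0.58 with the inhibitors. CNN1 and ACTA2, genes of contractile proteins, rose by 1.33 and 1.11 with the hairpin. FHL2, an SRF-binding cofactor, fell by 1.33 with the inhibitors and TPM4, a tropomyosin, by 0.42. SRF itself by 202401_s_at had its highest group mean in A1 (251 ± 32.0, SD, n = 3) and its lowest in uninduced TS cells at 72 h (147 ± 13.8, SD, n = 3). By 202400_s_at the highest mean of SRF was in uninduced Su-DHL1 (110 ± 2.45, SD, n = 3) and the lowest in A3 (43.4 ± 19.2, SD, n = 3).

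Across the 11 group means, EGR1, IER2, IER3 and IER5 varied together, with Pearson r of 0.84 to 0.94 for their 6 pairs. SRF correlated with them at 0.14 to 0.29 and EGR4 at -0.22 to -0.03. The groups share a scaling, and the A2 and A3 groups set much of these values, so they are given as descriptions. In the order of group means A2 and A3 were the lowest for EGR1, IER2, IER3 and IER5, and the next group up did not overlap with A3 for any of them except by the second EGR1 probe set. Above that, neighbours in the order mostly overlapped: for EGR1 the gap between A1 and U was the only other one, for IER3 and IER5 that below the highest group (induced TS at 72 h and induced Su-DHL1), and IER2 had 4 others. All neighbours of SRF by 202401_s_at and of EGR3 overlapped.

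Among 1420 genes whose 11 group means varied (SD at least 0.5), EGR1 was most like DUSP6 (r = 0.967), RFTN1 (0.966), a lipid raft protein gene, and SLC2A3 (0.96), a glucose transporter gene. IER2 was most like SLC27A2 (0.994), ADAM19 (0.983) and FOSL1 (0.98), the last an AP-1 gene. IER3 was most like SLC2A3 (0.985), ELK3 (0.973) and KIF21B (0.972), and IER5 like MICAL2 (0.958), ELK3 (0.958) and SPRED2 (0.957), a repressor of RAS-ERK signalling. SRF reached 0.751 with ENTPD6, 0.739 with ZNF747 and 0.72 with DNAJC10, and EGR4 no more than 0.505, with ANKMY1, then KLHL28 (0.495) and AGTR2 (0.488). The group means of IER5 (SD 0.29), EGR4 (0.25) and SRF (0.21) themselves varied by less than the 0.5 asked of the compared genes. For SRF and EGR4 the values are those of the main probe set, from which the other probe set differed. Likeness is over 11 group means that share the A2 and A3 groups, and says nothing of shared control.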

How the data were processed

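RNA of 33 TS and Su-DHL1 samples was hybridised to HG-U133A arrays. The deposited intensity values are MAS5 signals made by the authors, per the submitters' processing notes; the MAS5 version is not given in the sources used here. Of 22283 probe sets, 68 controls were left out. Of the other 22215, 19065 had 1 gene symbol in the platform annotation, 1043 several and 2107 none. Signals were taken as log2(signal + 11), 11 being the 20th percentile (10.8) rounded. Probe sets had to reach their array's 40th percentile on 3 arrays of the fit, and the probe set with the highest mean stood for its gene. Group means came from limma 3.58.1, run in R 4.3.3 (eBayes with trend, two-sided, Benjamini-Hochberg over 9097, 8587 and 9297 genes in the fits of 21, 12 and 33 arrays), with calls at an adjusted p under 0.05. The script was tested on simulated data. Figures used matplotlib 3.10.9 in Python 3.11.15.

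The members and gene lists were chosen with earlier results of these data known. From each list, up to 3 called genes with the largest change in an average are named, and for each member the 3 most like genes. Other genes are said to be named after their values were seen. Alternatives were offsets of 1 and 50, no filter, quantile normalization, median scaling, fits of only the groups compared or of all arrays, no trend, the replicate number as block, the ACTB ratio as covariate, the other probe sets and leaving out each array. The number of arrays limits the precision. The response of the inhibitors less that of the hairpin was added after the data were seen.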

Additional observations from a re-analysis of the deposited data

Results flagged for a closer look

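The following 2 differences between responses passed the test of the difference itself. The response of IER3 to the ALK hairpin in TS cells was lower at 84 h than at 72 h (log2 difference -0.53, adjusted p = 0.0298 by limma). The response of EGR4 by 207767_s_at was lower at 84 h by the log2 difference -1.43 (adjusted p = 0.037 by limma). Neither call was stable: leaving out 1 array lost it for 8 of 12 arrays (IER3) and 9 of 12 (EGR4). By 207768_at the same difference of EGR4 was 0.058. The response of EGR4 by 207768_at in Su-DHL1 cells less that in TS cells at 72 h was -1.93 in the fit. This value is given as a description and not as a test, since the probe set passed the filter of the hairpin experiment only through the uninduced Su-DHL1 arrays, and a difference from them is built into its selection.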

How the results depend on the processing

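Of 897 alternative values of the 46 called member differences, 83 kept their direction but were no longer called and 4 turned direction. Of 1032 alternatives of differences not called, 22 were called in the same direction and 7 in the opposite one. The 11 turned directions came from another probe set or the ACTB ratio. By 207768_at EGR4 had 0.78 (TS 84 h), 0.058 (84 h less 72 h), 0.76 (against A5M), -2.04 (A2 against A1), -1.78 (A3 against A1), -1.91 (both averaged), -1.84 (A2 against U) and -2.66 (inhibitor less hairpin response). This probe set passed the filters only through U, A1 and uninduced Su-DHL1 cells. Its falls from those groups are built into its selection, so its calls in these counts are descriptions and not tests. By 202400_s_at SRF had -0.051 (hairpin average) and -0.53 (against A5M). With the ACTB ratio EGR4 had -0.15 (TS 72 h).

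The count of members called moved as follows. With the ACTB ratio it was 1 in place of 2 (TS 72 h), 0 in place of 4 (hairpin average), 1 in place of 4 (against A5M) and 3 in place of 5 (A2, A3 and both averaged against A1). With median scaling it was 1 in place of 2 (Su-DHL1, where EGR1 was called and IER3 and IER5 were not), 1 in place of 4 (hairpin average), 0 in place of 2 (84 h less 72 h), 2 in place of 4 (against A5M) and 0 in place of 1 (A5M against uninduced). Quantile normalization gave 1 in place of 2 at TS 72 h. A fit of all 33 arrays gave 1 in place of 2 (Su-DHL1 and 84 h less 72 h) and 0 in place of 1 (A5M against uninduced). Only the groups compared gave 2 in place of 4 (against A5M), 0 in place of 1 (A5M against uninduced) and 2 in place of 0 (uninduced lines). For 84 h less 72 h no filter gave 1 and eBayes without trend 0. Leaving out an array gave 1 to 3 (TS 84 h), 1 to 3 (TS 72 h), 0 to 2 (84 h less 72 h) and 0 to 2 (A5M against uninduced). Calls over all genes moved too. With the ACTB ratio they went from 3108 to 1427 (TS 72 h), from 4622 to 2441 (hairpin average) and from 3942 to 2400 (against A5M). With median scaling they were 4462 (hairpin average) and 3798 (against A5M). Such totals are not given here for the 6 h comparisons. The cause was not tested.

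Arrays with the same replicate number did not deviate together: 2 of 63 pairs in the hairpin and 2 of 18 in the 6 h experiment had a correlation over 0.1 (-0.21 to 0.13 and -0.206 to 0.108). With the replicate block 1 in place of 2 members was called for 84 h less 72 h (EGR4, adjusted p = 0.0502 by limma, was lost). Dim signals limit what can be said of EGR3, of EGR4 by 207768_at and of EGR1 in A2 and A3.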
